A study of Mus musculus with 6 samples.

Results

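The semaphorins, plexins and neuropilins are a family of guidance signals and their receptors, and 34 of the 31017 rows of the deposited count table carry their names. The rows were taken by symbol (Sema3 to Sema7 with a letter, Plxna to Plxnd with a number, Nrp1 and Nrp2). They comprise 7 secreted class 3 semaphorins, 13 membrane semaphorins of classes 4 to 7, 9 plexins, 2 neuropilins and 3 noncoding rows antisense to Plxna4. Messenger RNA came from 4T1 cells, a mouse mammary carcinoma line, grown in collagen I gels. The 3 control libraries came from cells nucleofected with Cas9 and control guide RNAs. The 3 libraries labelled FGFR2 KO came from cells that received Cas9 with guides for FGFR2, a receptor kinase that binds fibroblast growth factors. Both groups had Cas9, gel culture in complete medium and collagenase digestion in common, and the gels held either 1.2 or 2.4 mg of collagen per ml, with no label saying which library had which. The sources used here give neither the exon cut by the guides nor whether the KO cells were a pool or a clone. An effect of the FGFR2 guides therefore cannot be told apart from a difference between the derived cells. The same holds for collagen density, if it differed by group.

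Semaphorins share an extracellular sema domain, through which they bind plexins on the receiving cell. Class 3 members are secreted, and most of them need a neuropilin as the binding part of the receptor while a plexin passes the signal on. Classes 4 to 6 span the membrane, class 7 is held by a lipid anchor, and these bind plexins, or in the case of Sema7a also integrins, without a neuropilin. Plexins act on actin and cell adhesion, and in carcinomas the family is known for effects on invasion and on blood vessel and nerve growth. Neuropilins also bind ligands of the VEGF family.

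The libraries held 15531790 to 20447719 counts. Fgfr2 itself, the targeted gene, stood at 99.7 ± 5.82 CPM (counts relative to the scaled library total) under control guides and 92.6 ± 10.4 CPM under FGFR2 guides (SD, n = 3 each), with overlapping groups (log2 fold change -0.11, edgeR adjusted p = 0.113). The label cannot be checked from this value, since an edit need not lower the transcript. The epithelial markers Epcam, Cdh1, Krt8, Krt18 and Krt19 summed to 3930 to 4046 CPM in control libraries and 3170 to 3273 CPM in KO libraries. Of the 5, 4 fell and Cdh1 rose (log2 fold change 0.25), all with an edgeR adjusted p below 0.05. Of 7 leukocyte markers, Adgre1 and Cd3e had 0 counts, and the list summed to 14.0 to 15.9 CPM in control libraries and 6.15 to 8.74 CPM in KO libraries, most of it Cd68. Fibroblast markers summed to 36.3 to 38.1 and 39.3 to 44.8 CPM, nearly all Pdgfra, which did not pass the test, with Lum at 0 counts. Of the rest, Col1a1 rose from 0.437 ± 0.111 to 1.24 ± 0.458 CPM (SD, n = 3; log2 fold change 1.47, edgeR adjusted p = 0.00338). It passed the filter on low counts through the KO libraries, with 10, 9 and 5 counts in the control and 33, 18 and 21 in the KO replicates. Dcn was not tested and had 2, 0 and 0 counts in the control and 11, 10 and 12 in the KO replicates. Endothelial markers summed to at most 0.588 CPM, with Tek and Kdr at 0, and neuronal and Schwann cell markers to at most 0.197 CPM, with Snap25 and Sox10 at 0. Genes that respond to dissociation moved in both directions, with 4 of 8 tested up and 4 down. The list summed to 3392 to 3589 CPM in the control and 2996 to 3248 CPM in KO libraries. Over all 12158 tested genes 54.6% changed at an edgeR adjusted p of 0.05, 27.1% upward and 27.5% downward. The part of these marker changes in the results that follow was not tested. In bulk RNA, fewer cells with a transcript and less of it per cell cannot be told apart.

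Most of the tested membrane semaphorins fell, while the secreted ones and the receptors moved in both directions. Of 23 members that passed the filter on low counts, 6 rose, 12 fell and 5 did not pass the edgeR quasi-likelihood test at an adjusted p of 0.05. That is 78.3% changed, where 54.6% of all 12158 tested genes changed, 27.1% upward and 27.5% downward. Among the 10 tested membrane semaphorins 8 fell and 0 rose, with a median log2 fold change (KO over control) of -1.03. None rose at an unadjusted p of 0.05 either (0 with edgeR, 0 with DESeq2 and 0 with limma-voom). The 5 tested class 3 members had 2 rises and 1 fall with a median of 0.05, and the 8 tested receptors had 4 rises and 3 falls with a median of 0.11. The median over all tested genes was -0.01. Changes of at least 2-fold were found for 8 of the 23 members, 6 of them membrane semaphorins, and for 6.75% of all tested genes. In 18 of the 23 members the KO libraries lay wholly to one side of the control libraries, 6 above and 12 below. Over all tested genes this held for 59.5%, 29.5% with KO higher and 30% with KO lower. The other 11 members did not pass the filter on low counts, so these counts describe the 23 and not all 34.

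**Figure D1:**
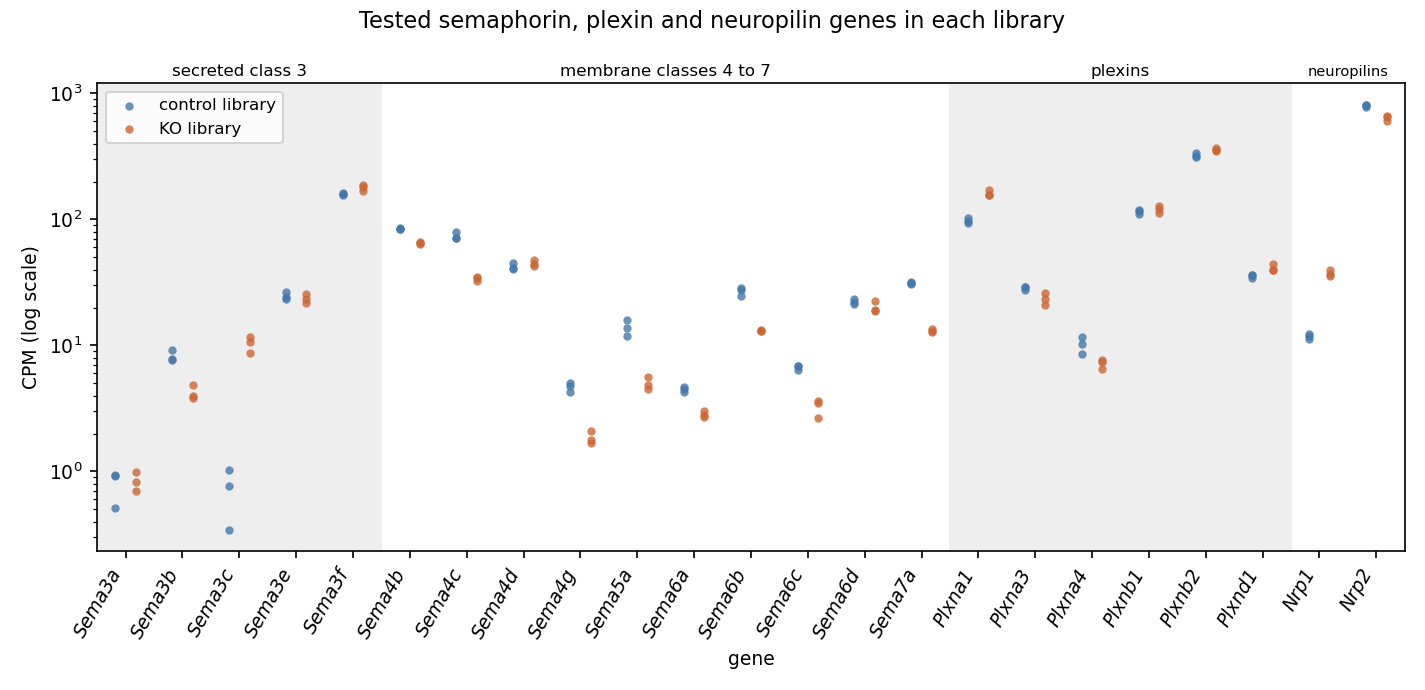
Level of each tested gene in every library, in CPM on a log axis; each point is 1 library, 3 control and 3 KO, grouped by gene class. Sema3c and Nrp1 stand well apart between the groups, and in 8 of 10 membrane semaphorins the KO points lie below all control points.

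**Figure D2:**
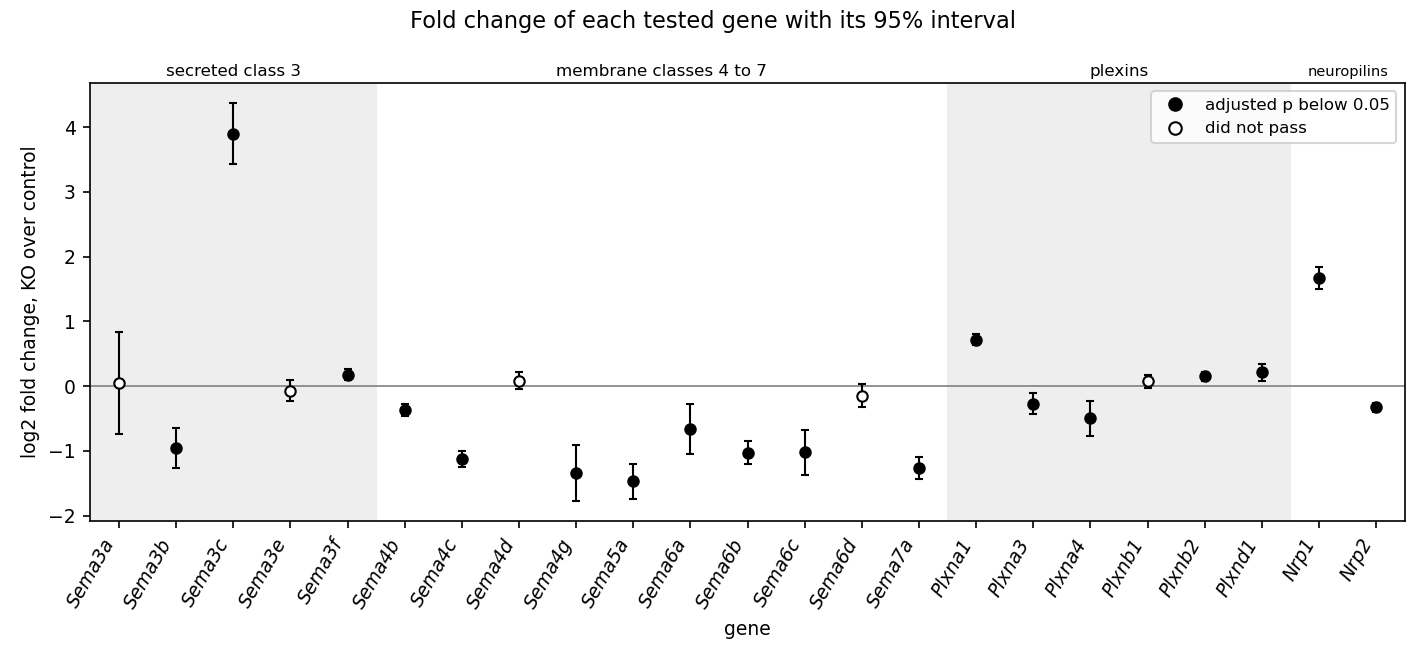
Log2 fold change (KO over control) of the 23 tested genes with its 95% interval from the edgeR fit; filled points had an adjusted p below 0.05. Sema3c has the highest value, 3.90, and Sema5a the lowest, -1.47.

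Sema3c was the tested member with the largest fold change. It encodes a secreted semaphorin that signals through either neuropilin together with plexin D1 or an A plexin, and it lies on chromosome 5, 17574281 to 17730268 (mm10). Control replicates 1 to 3 had 14, 7 and 16 counts, or 0.763, 0.345 and 1.03 CPM. KO replicates 1 to 3 had 218, 207 and 178 counts, or 11.7, 10.6 and 8.79 CPM. Every KO library was thus several times above every control library, although the gene stayed a minor transcript. The rise was 14.9-fold (log2 3.90, SE 0.23, 95% interval 3.43 to 4.37, edgeR adjusted p = 5.42e-17). In fits without 1 control library the log2 fold change ran from 3.53 to 4.23. Sema3c passed the filter on low counts through the KO libraries, and its fold rests on 37 counts over the control libraries. Relative to exon length it went from the 23rd to the 16th place among the 34 members, and from 0.284% ± 0.136 to 3.69% ± 0.591 of all class 3 transcript (SD, n = 3).

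Sema3f, a ligand that binds neuropilin 2, was the dominant class 3 member in both groups. It stood at 161, 155 and 160 CPM in the control replicates and at 169, 189 and 179 CPM in the KO replicates. All KO libraries were above all control libraries by a narrow margin (1.13-fold, log2 0.17, SE 0.042, edgeR adjusted p = 6.47e-04). Per kb of exon it made up 87.1% ± 0.339 of class 3 transcript in control libraries and 87.4% ± 1.24 in the KO libraries.

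Sema3b, like Sema3f described as a candidate tumour suppressor in human carcinomas, was the one class 3 gene that fell. Its values were 7.63, 9.16 and 7.81 CPM in control libraries and 3.85, 4.85 and 4.00 CPM in KO libraries, without overlap. The log2 fold change was -0.96 (SE 0.15, edgeR adjusted p = 2.03e-06). Sema3e, which binds plexin D1 directly without a neuropilin, had 26.5, 23.4 and 24.3 CPM in control libraries and 25.7, 23.5 and 21.5 CPM in KO libraries. Those groups overlapped, and the log2 fold change of -0.07 (95% interval -0.24 to 0.10, edgeR adjusted p = 0.483) did not pass. Sema3a, a classical axon repellent and neuropilin 1 ligand, was near the limit of detection at 8 to 20 counts per library. Its 95% interval ran from -0.74 to 0.84, so a change within those bounds was not excluded at this depth. Sema3d and Sema3g had 3 counts each over all 6 libraries and were not tested.

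All 4 classes of membrane semaphorins with tested members had at least 1 that fell: 3 of 4 in class 4, the only one tested in class 5, 3 of 4 in class 6, and Sema7a. Sema4c, a ligand of plexin B2, was close to Sema4b at the head of them in the control libraries, above it per kb of exon (16.1 ± 0.993 against 14.9 ± 0.147 CPM per kb) but below it with the longest transcript as the length. It lies on chromosome 1, 36548639 to 36558349, and was measured at 70.6, 71.6 and 79.0 CPM in control libraries and 34.1, 32.2 and 35.1 CPM in KO libraries. The lowest control value was about 2 times the highest KO value, and the log2 fold change was -1.12 (SE 0.059, edgeR adjusted p = 1.31e-18). Of its exons 334 bases also belong to a noncoding gene on the opposite strand, and the strand setting of the counting is not given in the sources used here.

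Sema7a, the lipid-anchored member that binds plexin C1 and beta 1 integrins (chromosome 9, 57940112 to 57962865), differed to a similar degree. The control libraries had 31.9, 31.3 and 30.7 CPM and KO libraries 12.8, 12.9 and 13.4 CPM. The spread within a group was far smaller than the difference (edgeR log2 fold change -1.26, SE 0.082, adjusted p = 7.87e-16). Of its known receptors, Plxnc1 was near 0 with 15 counts over the control and 5 over the KO libraries and was not tested. Itgb1, the beta 1 integrin chain, rose from 1123 ± 26.0 to 1379 ± 26.7 CPM (SD, n = 3; log2 fold change 0.30, edgeR adjusted p = 3.40e-10).

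Sema5a, a transmembrane protein with thrombospondin repeats (chromosome 15, 32244810 to 32696341), had the largest proportional fall. It stood at 15.9, 11.9 and 13.7 CPM in control libraries and 4.81, 5.62 and 4.49 CPM in KO libraries (edgeR log2 fold change -1.47, SE 0.14, adjusted p = 1.04e-11). Control replicates varied more for this gene than for Sema7a, and still no KO library reached a control library. Sema5b had 0 counts in all libraries, and Plxnb3, described as a receptor of Sema5a, had 10 counts in all.

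The class 6 semaphorins, transmembrane ligands of A plexins, fell with 1 exception. Sema6b was measured at 28.3, 27.6 and 24.6 CPM in control libraries and 13.3, 13.1 and 13.0 CPM in KO libraries (edgeR log2 fold change -1.03, SE 0.088, adjusted p = 1.38e-12). The 3 KO libraries were almost equal, and the control values were about 2 times higher. Sema6c went from 6.87, 6.35 and 6.84 CPM to 2.67, 3.63 and 3.51 CPM (edgeR log2 fold change -1.03, SE 0.17, adjusted p = 3.95e-06). Sema6a, which signals through plexins A2 and A4, went from 4.69, 4.28 and 4.52 CPM to 3.00, 2.71 and 2.81 CPM (edgeR log2 fold change -0.66, SE 0.19, adjusted p = 0.0039). Neither of these 2 genes had overlapping groups. The exception was Sema6d, a ligand of plexin A1, with 23.4, 22.2 and 21.4 CPM in control libraries and 22.6, 19.0 and 18.9 CPM in KO libraries. KO replicate 1 lay within the control range, and the log2 fold change of -0.15 (95% interval -0.32 to 0.03, edgeR adjusted p = 0.148) did not pass. Without KO replicate 1 it was -0.24 with an edgeR adjusted p of 0.0332.

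In class 4, Sema4g fell by 1.34 on the log2 scale (SE 0.21, edgeR adjusted p = 1.83e-06), from 4.80, 4.28 and 5.03 CPM to 1.77, 2.09 and 1.68 CPM. Sema4b, among the most abundant membrane semaphorins, went from 83.7, 83.4 and 84.9 CPM to 64.9, 66.0 and 63.9 CPM (edgeR log2 fold change -0.37, SE 0.048, adjusted p = 3.47e-08). Sema4b was the higher of the pair in the KO libraries by both lengths, at 11.5 ± 0.19 against 7.36 ± 0.325 CPM per kb of exon for Sema4c (SD, n = 3). Sema4d, the ligand of plexin B1, was measured at 41.4, 44.8 and 40.3 CPM in control libraries and 42.6, 47.5 and 44.2 CPM in KO libraries. These groups overlapped, and its log2 fold change of 0.08 (95% interval -0.04 to 0.21, edgeR adjusted p = 0.255) did not pass. Sema4f, with 33 counts in control libraries and 19 in the KO libraries, and Sema4a, with 3 and 2, were not tested.

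The receptors split by gene. Nrp1, which binds class 3 semaphorins and VEGF-A (chromosome 8, 128358604 to 128503363), rose in every KO library. It was measured at 11.2, 12.3 and 11.9 CPM in control libraries and 37.1, 40.0 and 35.4 CPM in KO libraries, 3.17-fold (log2 1.67, SE 0.083, edgeR adjusted p = 2.73e-19). Nrp2 (chromosome 1, 62703285 to 62818695) was the most abundant member per kb of exon in both groups and fell, from 784, 808 and 816 CPM to 652, 609 and 661 CPM (edgeR log2 fold change -0.32, SE 0.034, adjusted p = 3.25e-10). The neuropilins therefore moved in opposite directions, with Nrp2 still far the higher. Nrp1 made up 1.75% ± 0.058 of neuropilin transcript per kb of exon in control libraries and 6.63% ± 0.664 in the KO libraries (SD, n = 3), or 2.64% and 9.77% with the longest transcript as the length of each gene.

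Plxna1, a co-receptor of neuropilins and the receptor of Sema6d (chromosome 6, 89316314 to 89362620), was the plexin with the largest rise. Its values were 97.5, 93.8 and 102 CPM in control libraries and 170, 156 and 157 CPM in KO libraries (1.65-fold, log2 0.72, SE 0.045, edgeR adjusted p = 2.57e-16). Of its exons 970 bases overlap Gm26811 on the opposite strand, which was counted at 0.04 CPM in control libraries. Plxna3, which pairs with neuropilin 2, went the other way, from 28.8, 27.4 and 28.9 CPM to 26.1, 21.04 and 23.5 CPM (edgeR log2 fold change -0.27, SE 0.08, adjusted p = 0.00447). Plxna4 fell from 8.50 to 11.6 CPM in the control to 6.49 to 7.61 CPM in KO libraries (edgeR log2 fold change -0.50, SE 0.13, adjusted p = 0.00189). Among the A plexins, Plxna1 thus took a larger share per kb of exon, 83.6% ± 0.875 against 71.4% ± 0.284. Plxna2 had 0 counts over 112734358 in all, which allows a level of up to 0.0266 CPM, as did the 3 rows antisense to Plxna4. That limit covers counting error alone.

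Plxnb2, the receptor of Sema4c and the most abundant plexin, rose slightly, from 316, 317 and 338 CPM to 372, 351 and 353 CPM (edgeR log2 fold change 0.15, SE 0.037, adjusted p = 8.29e-04). Plxnb1, the receptor of Sema4d, was measured at 118, 110 and 116 CPM in control libraries and 122, 112 and 128 CPM in KO libraries. Its groups overlapped, and the log2 fold change of 0.07 (95% interval -0.02 to 0.17, edgeR adjusted p = 0.195) did not pass, but without KO replicate 2 it was 0.12 (edgeR adjusted p = 0.0319). Plxnd1, the receptor of Sema3e and a partner of Sema3c, went from 34.5, 36.4 and 36.3 CPM to 39.9, 39.8 and 44.1 CPM (edgeR log2 fold change 0.21, SE 0.064, adjusted p = 0.00606). KO replicate 3 was the highest, and without it the Plxnd1 call was lost (log2 fold change 0.16, edgeR adjusted p = 0.0586). Against a minimum fold change of 1.5, 10 of the 18 calls remained, and those of Sema3f, Sema4b, Sema6a, Nrp2, Plxna3, Plxna4, Plxnb2 and Plxnd1 were lost (edgeR adjusted p = 1 for each).

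Setting known ligand and receptor pairs side by side, the changes did not follow a single pattern. Among the neuropilins, the A plexins and Plxnd1, which serve class 3 semaphorins, Nrp1, Plxna1 and Plxnd1 rose as Sema3c did, while Nrp2, which held most of the neuropilin transcript, and the A plexins Plxna3 and Plxna4 fell. Sema3f and its receptor Nrp2 went in opposite directions, and so did Sema4c and Plxnb2, and Sema7a and Itgb1. Neither Sema4d nor Plxnb1 passed the test. Sema6a and Sema6b fell beside Plxna4. These are descriptions of single genes, and no test compared the pairs.

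Summed per kb of exon, the membrane semaphorins dropped while class 3 and the plexins were higher. The summed level of the 13 membrane semaphorins was 57.8, 57.6 and 58.1 CPM per kb across the control replicates and 35.2, 35.5 and 35.3 across the KO replicates. Class 3 summed to 35.6, 34.5 and 35.2 CPM per kb in control libraries and 37.8, 41.4 and 39.0 in the KO libraries. Class 3 made up 37.8% ± 0.346 of semaphorin transcript in control libraries and 52.7% ± 1.05 in the KO libraries (SD, n = 3). The plexins summed to 72.2 to 76.7 CPM per kb in control libraries and 83.0 to 88.9 in the KO libraries, and the neuropilins to 67.4 to 70.1 and 55.6 to 59.5. None of these sums overlapped between groups. The plexin sum followed mostly Plxna1, at 10.8 and 17.8 CPM per kb on average in control and KO libraries, and Plxnb2, at 41.9 and 46.4. Plxna3 and Plxna4 fell. The neuropilin sum followed Nrp2, while Nrp1 rose. The level of the class 3 share rests on Sema3f: without it the share was 7.29% ± 0.190 and 12.3% ± 0.904, still higher in the KO libraries. Between control and KO libraries the membrane sum, at 57.8 and 35.3 CPM per kb on average, moved more than the class 3 sum, at 35.1 and 39.4. With the longest transcript in place of all exons as the length, the class 3 share was 41.7% and 55.4%. Nrp2, Plxnb2 and Sema3f kept the first 3 places per kb in both groups and with both lengths.

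**Figure D3:**
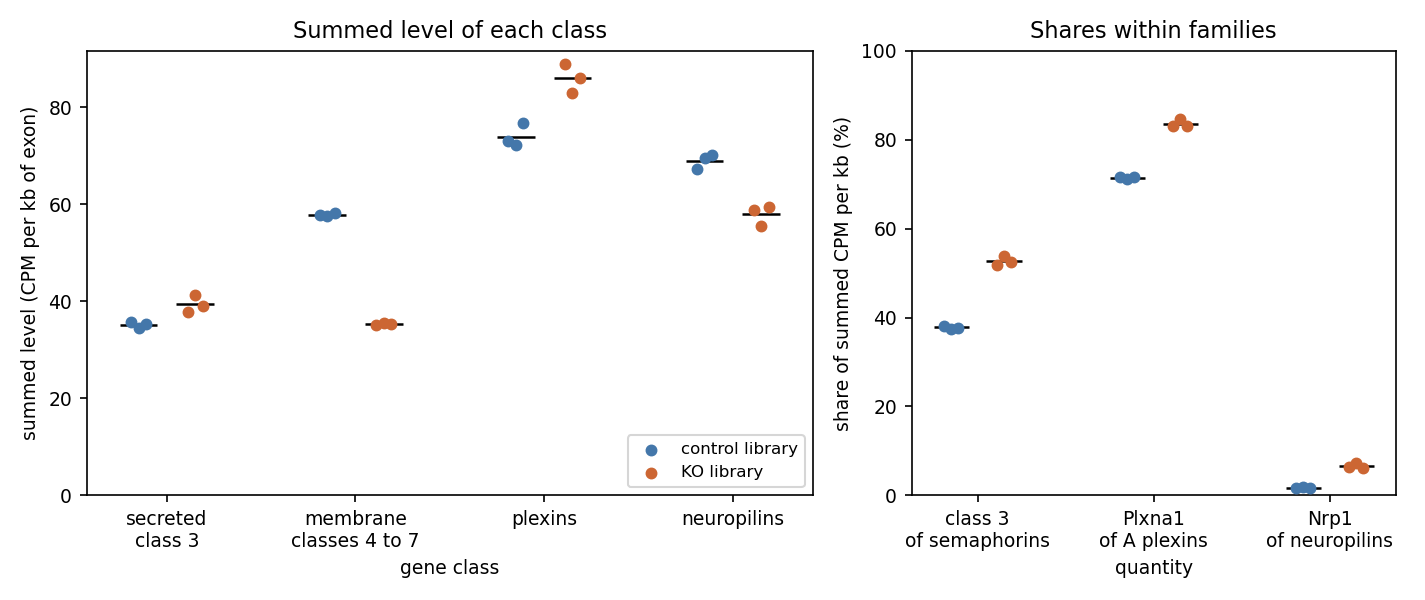
Left, summed level of each class in CPM per kb of exon; right, shares of summed level in percent; each point is 1 library and each line a group mean (n = 3). The membrane classes fall from 57.8 to 35.3 on average, and the class 3 share goes from 37.8% to 52.7%.

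**Figure D4:**
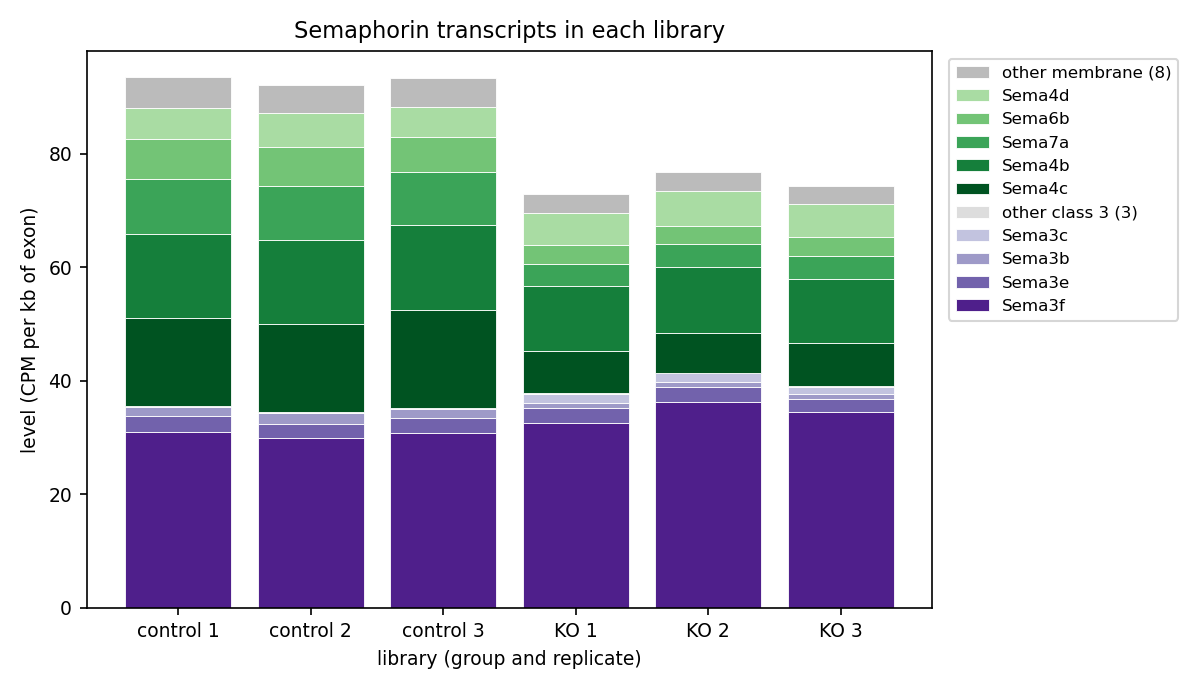
Stacked levels of the semaphorins in each of the 6 libraries, in CPM per kb of exon, class 3 in purple below and membrane classes in green above. The purple part is mostly Sema3f in every library, and the green part is shorter in the 3 KO libraries.

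Among other genes of the pathway, the effectors inside the cell moved in both directions. All counts for these lists stand against 54.6% of tested genes changed, 27.1% upward and 27.5% downward, and with 6 to 34 tested genes a list nothing particular to a list is read from them. Of 34 tested cytoplasmic effectors of plexins 15 rose and 6 fell, with a median log2 fold change of 0.06, a share of changed genes near that of all tested genes. Rnd3, a GTPase of the Rnd group that binds plexins, rose from 29.1 ± 1.22 to 67.2 ± 1.91 CPM (SD, n = 3; log2 1.21, edgeR adjusted p = 1.49e-19). Tiam1, an activator of Rac, rose by 0.66, the actin-oxidising enzyme gene Mical3 by 0.82, and the exchange factor gene Farp1 by 0.36. Mical1, Crmp1, Dpysl3 and Dpysl4 had 0 counts.

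VEGF family genes, whose products share the neuropilins, changed in 5 of 6 tested cases, 2 up and 3 down, where 54.6% of all tested genes changed. Vegfa fell from 145 ± 6.26 to 91.9 ± 1.74 CPM (SD, n = 3; log2 fold change -0.66, edgeR adjusted p = 1.66e-15). Vegfb and Pgf fell by 0.99 and 1.16 on the log2 scale. Vegfc rose by 0.52. Vegfd passed the filter through the KO libraries, with 1, 3 and 2 counts in the control and 17, 22 and 13 in the KO replicates, and its log2 fold change of 2.93 had a 95% interval of 1.71 to 4.15. The receptor gene Flt1 did not pass the test, at 77.0 ± 3.50 and 75.6 ± 2.05 CPM, and Kdr and Flt4 had 0 counts.

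Of 7 tested receptor partners and other semaphorin receptors 3 rose and 1 fell, again near the 54.6% changed over all tested genes. Besides Itgb1, Met, a receptor tyrosine kinase that associates with B plexins, rose by 0.41, and L1cam, part of a Sema3a receptor complex, rose from 2.79 ± 0.753 to 6.17 ± 0.092 CPM (SD, n = 3). Robo1, a Slit receptor, fell by 0.96. Among 7 tested proteases known to cut semaphorins or their receptors, 5 rose and 2 fell, where 27.1% and 27.5% of all tested genes did. Mmp14 rose by 0.78 from 329 ± 8.98 to 563 ± 20.2 CPM, Adamts1 by 0.51 and Adam10 by 0.29. Adam17 fell by 0.44, and Furin, the convertase that processes class 3 semaphorins, fell by 0.31 from 180 ± 2.37 to 146 ± 6.24 CPM. The other convertases tested rose, Pcsk6 2.01-fold from 4.27 ± 0.065 to 8.58 ± 0.777 CPM and Pcsk7 1.44-fold from 20.9 ± 2.05 to 30.3 ± 0.677 CPM (SD, n = 3).

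Several members moved together, so promoter sequence was read where the RefSeq table (GRCm38.p6, with 250 bases before the annotated start) held a window. It did for 26 members, among them 4 of the 6 that rose and 9 of the 12 that fell. Plxna1, Sema3f, Sema3b, Sema6a and Plxna4 were not analysed here. Windows are shown for the 4 changed members with a single listed start and no annotated exon in those 250 bases, of which Nrp1 and Plxnd1 rose and Plxna3 and Sema7a fell. The Nrp1 window precedes the RefSeq start. In the GENCODE M21 annotation used for positions it lies within the gene, which starts at 128358604, outside its exons. Capitals mark matches on either strand to GCGTG or ACGTG (forms of the core of the hypoxia response element), TGANTCA (the AP-1 element) and GGAATG (the TEAD element).
Nrp1 (chr8:128358823-128359072, plus strand): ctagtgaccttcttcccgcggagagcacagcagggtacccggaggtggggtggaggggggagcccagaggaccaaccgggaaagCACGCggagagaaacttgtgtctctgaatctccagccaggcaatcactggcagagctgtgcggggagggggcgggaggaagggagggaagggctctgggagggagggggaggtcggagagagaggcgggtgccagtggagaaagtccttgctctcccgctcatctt
Plxnd1 (chr6:115995006-115995255, minus strand): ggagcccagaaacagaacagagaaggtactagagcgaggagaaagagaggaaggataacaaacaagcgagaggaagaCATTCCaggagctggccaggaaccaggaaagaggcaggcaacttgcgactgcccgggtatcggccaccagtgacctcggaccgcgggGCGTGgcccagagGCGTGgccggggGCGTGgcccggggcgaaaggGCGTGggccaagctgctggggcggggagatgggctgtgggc
Plxna3 (chrX:74328816-74329065, plus strand): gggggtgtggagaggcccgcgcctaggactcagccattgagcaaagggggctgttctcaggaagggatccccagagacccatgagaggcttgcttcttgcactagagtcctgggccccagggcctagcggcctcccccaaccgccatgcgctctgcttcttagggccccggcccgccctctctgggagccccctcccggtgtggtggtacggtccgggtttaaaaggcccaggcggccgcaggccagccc
Sema7a (chr9:57939862-57940111, plus strand): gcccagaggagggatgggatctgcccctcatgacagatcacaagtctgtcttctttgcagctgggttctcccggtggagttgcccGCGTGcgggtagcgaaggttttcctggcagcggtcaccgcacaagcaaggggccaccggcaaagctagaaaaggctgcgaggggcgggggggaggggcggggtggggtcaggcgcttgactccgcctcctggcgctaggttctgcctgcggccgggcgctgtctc

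The Plxnd1 window held 4 matches to GCGTG and 1 to GGAATG, the Nrp1 and Sema7a windows held 1 match to GCGTG each, and the Plxna3 window held no match to the 4 motifs. GCGTG was found in 3 of 5 windows of members that rose, 7 of 13 of members that fell, 0 of 8 of members that did not pass and 3 of 11 of untested members, against 28.2% of all 32851 windows. ACGTG, which also lies within the E-box CACGTG, was in 1 of 5 and 4 of 13 windows of members that rose and fell, against 16.6% of all. TGANTCA was in 0 of 5 and 2 of 13, against 6.75%, and GGAATG in 1 of 5 and 0 of 13, against 12.6%. These counts cover all 250 bases of each window, annotated exon included. The Sema3c window, with matches to GCGTG and ACGTG, lay wholly in annotated exon. So did 1 Sema4c window, with matches to GCGTG and TGANTCA. The Sema4g window, with matches to GCGTG and ACGTG, held 243 exonic bases. Members had windows in part from alternative starts of 1 gene, so windows are not independent, and GC content was not matched. The 8 windows of members that did not pass came from 5 genes. Where a window had bases outside annotated exon, their GC content was 40.8% to 52.4% for members that did not pass. For members that rose or fell it was 57.1% to 78.9%. The part of GC content in these match counts was not tested. A match to these letters describes the sequence and shows no binding.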

How the data were processed

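The deposited table holds whole-number read counts per gene, not normalized, with 1 column for each of 6 libraries. Per the submitters' processing notes, the authors used FastQC 0.11.9, STAR 2.7.9a, featureCounts and R 4.1.1, and the builds hg38 and mm10 are named. The sources used here do not give the annotation counted, the strand setting or the treatment of multi-mapped reads. Of 31017 symbols 98.2% occur in GENCODE M21 (mm10), which gave positions and exon lengths and held all 34 members. The kit was a stranded poly(A) one, per the labels' protocols, after collagenase digestion for 10 min and a further 5 min.

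Counts were filtered with filterByExpr (minimum count 10, total 15), scaled with TMM, fitted with the group as the only term and tested with the edgeR 4.0.16 quasi-likelihood F-test in R 4.3.3, with Benjamini-Hochberg adjustment over 12158 genes and a threshold of 0.05. SE is the log2 fold change over the root of F, intervals are 95%, and CPM use TMM-scaled totals. Levels between genes are compared as CPM per kb of the union of exons. DESeq2 1.42.0 and limma 3.58.1 were alternatives. Counts over 12055 genes were simulated for this comparison, with changes seeded in a small share of the genes. The test found 76% of 1.25-fold changes, 79.6% of those of 1.5-fold, 98% of those of 2-fold and 100% of those of 4-fold. Of its calls 4.86% were false. In the data 54.6% of tested genes were called, so these rates need not hold there.

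Per-library values are given for members with an adjusted p below 0.05 and a log2 change of at least 0.5, or a mean of at least 10 CPM. Each pathway list names the 4 smallest adjusted p. Vegfc, Furin, Pcsk6, Pcsk7, Col1a1 and Dcn were named after their values were seen. Members and lists were chosen with earlier results of these data known. Replicates of a group differed by more than counting noise (chi-square per degree of freedom 2.28 to 2.64 between control and 3.75 to 4.69 between KO libraries, against 41.4 to 48.3 between groups). The labels do not say that replicates were separate cultures, so p-values cover the spread of these 6 libraries alone, and that spread may be technical.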

Additional observations from a re-analysis of the deposited data

How the results depend on the processing

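Each tested member was refitted under up to 14 alternatives (2 other filters, 2 other scalings, DESeq2, limma-voom, a minimum fold change, the replicate number as a block, and 6 fits without 1 library). Of 318 values 305 kept their direction and their side of the threshold. Against a minimum fold change of 1.5, 907 genes, 10 members and 2 receptors passed, and 8 member calls were lost. Requiring a mean of 5 CPM left 5 membrane semaphorin calls, since Sema4g, Sema6a and Sema6c were no longer tested. Without 1 library, 5922 to 6276 genes and 17 to 19 members were called, and Sema3a, which did not pass, ran from -0.15 to 0.19, with -0.15 without control replicate 3 and -0.09 without KO replicate 3; the cause was not tested. With the replicate number as a block 6443 genes and 18 members were called, against 6639 and 18 without it, and no member call changed. Same-numbered libraries did not deviate together (r = -0.06 to -0.003 over genes), and 0 of 6 libraries correlated best with their own number. Upper quartile scaling gave 2969 rises and 3603 falls and RLE scaling 3347 and 3292, with no change in a member call. Chosen after seeing the data, the longest transcript as gene length gave Nrp1 2.64% of neuropilin transcript in the control and 9.77% in the KO libraries. Depth limits Sema3a, with 93 counts in all, and the untested members, with at most 52 each.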

Other observations

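Class 3 genes on the same chromosome differed in their changes. Sema3b (chromosome 9, 107597674 to 107609229) and Sema3f (107681500 to 107710475) are both on the minus strand, 72270 bases apart with 3 protein coding genes between them. Sema3b fell by 0.96 on the log2 scale and Sema3f rose by 0.17 (edgeR adjusted p = 2.03e-06 and 6.47e-04). Of the genes between, Gnai2 was tested and did not pass. On chromosome 5, Sema3d, Sema3a, Sema3e and Sema3c lie in this order on the plus strand from 12383385 to 17730268. Of these 4 Sema3c changed by the test, Sema3a and Sema3e did not pass, and Sema3d, with 3 counts in all, was not tested. Sema3e and Sema3c are 3317591 bases apart, and none of the 16 protein coding genes between them passed the filter on low counts.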
